A study of Mus musculus with 7 samples.

Results

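Eukaryotic translation initiation factors are the proteins that bring the ribosome to the start codon of an mRNA. Their genes were followed here in naive CD4 T cells, resting helper cells of the immune system. Members were taken by gene name, and this set was chosen with earlier results of these data known. They are all genes whose symbol begins with Eif1 to Eif6, with the 3 Eif4ebp genes included and with 7 pseudogene rows, 4 Eif2ak kinases and the Y-linked copy of the eIF2 gamma gene left out. This gave 51 of the 34745 genes in the table. Of these, 48 had enough counts to be tested. Eif4e1b and Eif2c5 had 0 counts in all 7 libraries, and Eif2c5 carries the Eif name although the annotation types it as a long noncoding RNA. Eif4ebp3 had 6, 6 and 7 counts in the wild-type libraries and 21, 11, 8 and 10 in the mutant libraries and was not tested.

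The cells were taken ex vivo by negative selection from the spleen of 8-week-old male C57BL/6 mice, and total RNA was sequenced from 7 libraries. The control group was 3 wild-type mice (WT), and the second group was 4 mice heterozygous for PIK3CD GOF, a gain-of-function allele of the p110delta subunit of phosphoinositide 3-kinase. Controls were littermates, no treatment was given to either group, and the labels say neither which substitution the allele carries nor in which cells it is expressed, so effects within the T cells and effects of the rest of the mouse cannot be told apart. Each library is labelled as a separate sample, and whether mice were pooled is not stated, so p-values measure the spread between these libraries.

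Initiation begins when eIF2, loaded with GTP and initiator tRNA, joins the small ribosomal subunit together with eIF1, eIF1A, eIF3 and eIF5. The cap-binding protein eIF4E, the scaffold eIF4G and the helicase eIF4A then bring the mRNA, and the eIF4E-binding proteins compete with eIF4G for eIF4E until mTORC1, a kinase complex downstream of phosphoinositide 3-kinase, phosphorylates them. In T cells this machinery is known to be held low in the resting state and raised after activation, and many mRNAs of the translation apparatus start with a pyrimidine tract, the 5′ TOP motif, through which mTORC1 and LARP1 control their translation and stability.

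Totals were between 14498000 and 16293500 counts per library. WT replicate 2 stood apart within its group with 15264 genes detected, against 14096 and 14042 in the other WT libraries. Defining T cell genes were abundant in every library, and the summed CPM (counts per 1000000 counts, TMM-scaled) of 12 naive CD4 T cell markers was 9328 to 10039 in WT and 9010 to 9967 in GOF. Among these markers Cd3e, Cd3g and Cd4 rose and Il7r, Lef1 and Klf2 fell. Markers of other cells were higher in GOF. Of 14 tested myeloid markers 12 rose, with a summed CPM of 44.9 to 85.6 in WT and 155 to 522 in GOF. For neutrophils 8 of 9 rose (0.766 to 9.48 against 59.6 to 216), and Camp was at 0 counts in all WT libraries. For B cells 8 of 11 rose (360 to 456 against 708 to 1144), for NK and CD8 T cells 7 of 9 (60.6 to 77.1 against 125 to 172), for dividing cells 10 of 12 (208 to 228 against 285 to 313), for red blood cells and platelets 5 of 8 (6.61 to 20.3 against 19.2 to 68.3), and for plasma cells 1 of 2 (2.92 to 8.20 against 22.2 to 61.3). GOF replicates 1 and 3 had the highest sums for each of these other cell types. None of the 7 marker sums of other cells fell in GOF, and their part in the results that follow was not tested. In bulk RNA, fewer cells of a type and less RNA per cell cannot be told apart.

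Initiation factor mRNAs were on the whole somewhat lower in GOF cells. Of the 48 tested members 16 fell, 2 rose and 30 did not pass the test, in edgeR's quasi-likelihood test with Benjamini-Hochberg adjustment over all tested genes. The same test called 31.3% of all 12668 tested genes, 14.5% lower and 16.8% higher, so 33.3% of the members against 14.5% of all genes were called lower, and 4.17% against 16.8% higher. The median log2 fold change, GOF against WT, was -0.17 over the members and 0.0061 over all tested genes, and 37 of the 48 members had a negative value. Members are among the more abundant genes, and in genes with a mean FPKM of at least 5 the background was 18.7% lower and 14.0% higher. The level in GOF lay below every WT library for 19 members and above every WT library for 5, where 39.8% of all tested genes had groups that do not overlap, 18.2% with GOF below and 21.5% with GOF above.

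Together the members took 1.10%, 1.04% and 1.11% of all counts in the WT libraries. In the GOF libraries they took 0.962%, 0.974%, 0.958% and 0.975%. The groups did not overlap, and the mean share was 10.6% lower in GOF. With mitochondrial and ribosomal protein genes taken out of the total, the share was 1.20% ± 0.0570 (SD, n = 3) in WT and 1.09% ± 0.00704 (SD, n = 4) in GOF. Mitochondrially encoded genes took 4.33% to 5.12% of counts in WT and 5.78% to 6.71% in GOF.

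The number of members called depended on the libraries and the scaling. With totals in place of TMM, 11 members were lower and 2 higher, and all genes split into 1428 lower (11.3%) and 2527 higher (19.9%), against 1838 lower and 2130 higher with TMM. With limma on log2(FPKM + 1) there were 9 lower and 3 higher members among 1393 lower (11.0%) and 2606 higher (20.6%) genes. Leaving out WT replicate 1 gave 9 lower and 2 higher members, beside 13.1% and 15.3% of all tested genes. Leaving out WT replicate 3 gave 9 and 1, beside 10.8% and 12.8%. Leaving out GOF replicate 1 gave 10 and 2, beside 11.1% and 13.0%, and leaving out GOF replicate 4 gave 13 and 1, beside 12.1% and 14.0%. With GOF replicates 1 and 3 removed, whose other-cell marker sums were highest, 7 members (14.6%) were lower and 1 higher, beside 8.34% and 8.53% of all tested genes. With GOF replicates 2 and 4 removed, 5 members (10.4%) were lower and 1 higher, beside 10.5% and 13.6% of all tested genes. In that setting the share of lower members was not above that of all genes. The median log2 fold change there was -0.20 over the members and 0.017 over all tested genes. The falls of Eif3e, Eif4b, Eif4ebp1, Eif4ebp2 and Eif5a, were kept in every alternative run for them.

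**Figure D1:**
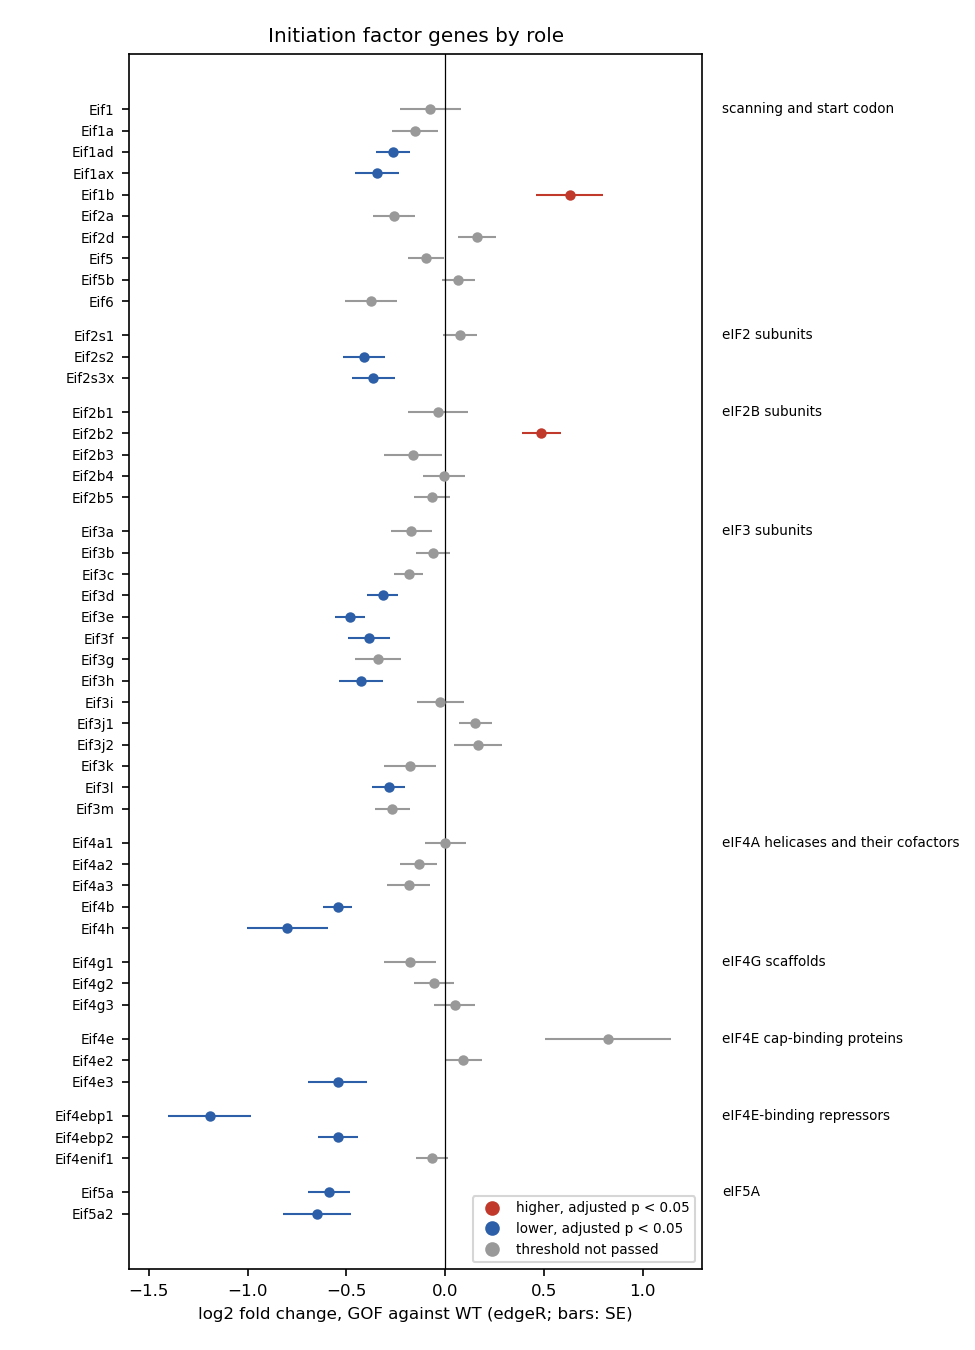
Log2 fold change of the 48 tested initiation factor genes, GOF against WT, grouped by role, with bars for the standard error (edgeR, 3 WT and 4 GOF libraries). The 16 genes that fell lie between -1.19 and -0.26 and the 2 that rose, Eif2b2 and Eif1b, at 0.49 and 0.63, while Eif4e at 0.82 has a wide bar and did not pass.

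At the mRNA cap, 2 of the 4 genes for eIF4E-binding repressors fell, Eif4ebp1 and Eif4ebp2, beside 14.5% of all tested genes. Eif4enif1 did not pass, Eif4ebp3 was not tested and Eif4e itself did not fall. Eif4ebp1 (ENSMUSG00000031490, chr8:27260327-27275656, mm10) encodes 4E-BP1, the best studied mTORC1 target among the eIF4E-binding proteins. Its level was 16.2, 12.6 and 16.6 CPM in the WT libraries and 7.42, 4.73, 8.00 and 6.30 CPM in the GOF libraries. Every GOF library lay below every WT library. The log2 fold change was -1.19 (SE 0.21, edgeR adjusted p = 0.0029), the largest fall among the members in this test.

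Eif4ebp2 (ENSMUSG00000020091, chr10:61432497-61452669) encodes 4E-BP2, and of the 3 Eif4ebp genes it gave by far the most counts in these cells. It was at 212, 256 and 274 CPM in WT and at 175, 182, 165 and 157 CPM in GOF. The groups did not overlap, and the log2 fold change was -0.54 (SE 0.10, edgeR adjusted p = 0.0042). Eif4ebp3, the third gene of the family, gave under 1.4 CPM in every library, and its groups overlapped, with the WT libraries between 0.413 and 0.487 CPM and the GOF libraries between 0.481 and 1.37 CPM. A same-strand gene overlaps the exons of Eif4ebp3, so its few counts are uncertain. Eif4enif1, which encodes the eIF4E transporter 4E-T, was at 109 ± 1.95 CPM (SD, n = 3) in WT and 104 ± 6.45 CPM (SD, n = 4) in GOF and did not pass (edgeR adjusted p = 0.580).

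Eif4e (ENSMUSG00000028156), which encodes the main cap-binding protein, was at 20.3, 57.7 and 23.6 CPM in WT and at 58.9, 58.9, 59.8 and 62.5 CPM in GOF. WT replicate 2 sat next to the GOF libraries and the other WT libraries far below them, so the groups did not overlap although the WT spread was wide. The log2 fold change was 0.82 (SE 0.32) and did not pass in edgeR (adjusted p = 0.0782). Without WT replicate 2 it was 1.45 (SE 0.11, edgeR adjusted p = 9.4e-05), while without WT replicate 1 or 3 it was 0.56 and 0.62 (edgeR adjusted p = 0.194 and 0.232). DESeq2 called Eif4e higher with all libraries (adjusted p = 0.0209), as did limma on log2(FPKM + 1) (adjusted p = 0.0333), so the call turned on the test and on 1 library. WT replicate 2 is also the WT library with the most genes detected, and the part of that in the Eif4e value was not tested.

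The promoter of Eif4e is known for its E-boxes, the CACGTG sites bound by MYC. It is shown here because Eif4e lay above WT in every GOF library, although it did not pass in edgeR. A part of MYC in these values was not tested. The 30-base windows around both matches, read from the RefSeq promoter table (GRCm38.p6, plus strand, chr3:138527028-138527057 and chr3:138527192-138527221), have the CACGTG in capitals.
Eif4e E-box 1: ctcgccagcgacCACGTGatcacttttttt
Eif4e E-box 2: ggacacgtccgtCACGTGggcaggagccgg
CACGTG, which reads the same on both strands, was found in the 300 bases around at least 1 annotated start of 10 of the 39 members with an entry (25.6%) and of 8.09% of all 27025 genes in that table. Those 10 were Eif1b, Eif3a, Eif3f, Eif3k, Eif4a1, Eif4h, Eif4g1, Eif4e, Eif5a and Eif5a2, of which Eif3f, Eif4h, Eif5a and Eif5a2 fell and Eif1b rose. The share over all genes of that table also covers genes without counts in these cells. Among the other translation genes described below the share was 16.7%. It was 33.3% among 12 members that fell and 20.8% among 24 that did not pass. A match is a description of the sequence and not of binding.

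No rise was called for the other cap-binding genes. Eif4e2, whose product 4EHP binds caps without recruiting eIF4G, was at 91.5 ± 6.75 CPM (SD, n = 3) in WT and 97.5 ± 6.83 CPM (SD, n = 4) in GOF (edgeR adjusted p = 0.491). Eif4e3, a divergent member of the family, was at 47.1, 54.1 and 35.6 CPM in WT and at 29.5, 34.5, 28.7 and 32.4 CPM in GOF. The highest GOF library was just under the lowest WT library, and Eif4e3 fell with a log2 fold change of -0.54 (SE 0.15, edgeR adjusted p = 0.0215). That call was lost when WT replicate 1 or 2 or GOF replicate 1 or 3 was left out (edgeR adjusted p from 0.0564 to 0.0712), and a gene on the same strand, Gm20696, overlaps its exons.

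Per length, the ratios of Eif4ebp2 and Eif4ebp1 to Eif4e were lower in every GOF library than in any WT library. With counts divided by the annotated exon length of each gene, the ratio of Eif4ebp2 to Eif4e was 10.8, 4.60 and 12.1 in WT and 3.09, 3.21, 2.87 and 2.61 in GOF. The ratio of Eif4ebp1 to Eif4e was 2.18, 0.598 and 1.93 in WT and 0.345, 0.219, 0.366 and 0.276 in GOF. In every GOF library both Eif4ebp genes lay below WT and Eif4e above it, so neither ratio could overlap. The ratios therefore add nothing to the single genes, and Eif4e did not pass in edgeR (adjusted p = 0.0782). WT replicate 2 was the nearest to GOF in both ratios, and no test was made of them. Eif4e is only 1 of the cap-binding genes, and in WT Eif4e2 had a higher mean per exon length (11.8 against 5.46). The change of each ratio does not depend on the lengths used, but its size does, since the lengths implied by the deposited FPKM lay within 10% of the annotated exon length for 32.3% of genes.

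**Figure D2:**
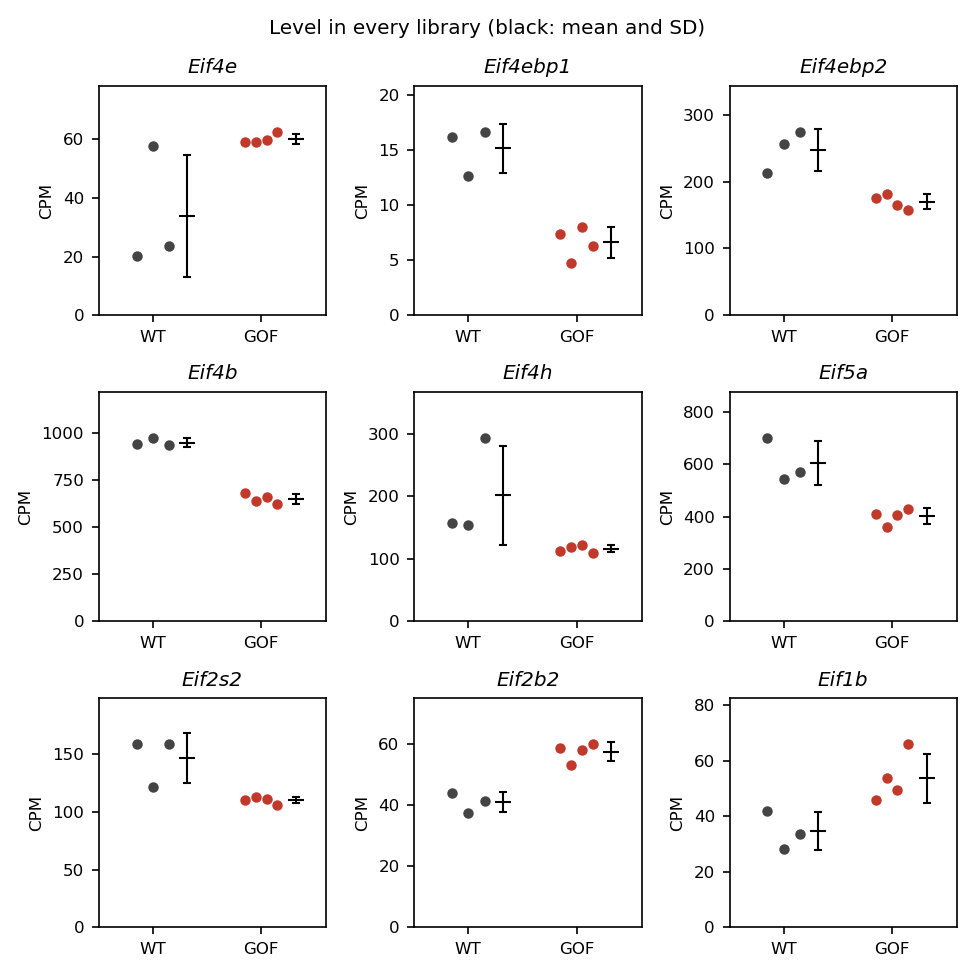
Level in CPM of 9 initiation factor genes in each of the 3 WT (grey) and 4 GOF (red) libraries, with the mean and SD in black and each axis starting at 0. The groups do not overlap in any panel; WT replicate 2 of Eif4e (57.7 CPM) and WT replicate 3 of Eif4h (293 CPM) stand away from the other WT libraries.

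Among the helicases and their helpers, the cofactors fell and the helicase genes did not pass the test. Eif4b (ENSMUSG00000058655, chr15:102073773-102097172) encodes eIF4B, which stimulates eIF4A and is phosphorylated by S6 kinase. It was at 942, 976 and 936 CPM in WT and at 684, 639, 663 and 624 CPM in GOF. Both groups were tight and well apart, with a log2 fold change of -0.54 (SE 0.072, edgeR adjusted p = 0.00066).

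Eif4h (ENSMUSG00000040731, chr5:134619721-134639490) encodes a smaller stimulator of eIF4A. It was at 158, 154 and 293 CPM in WT and at 113, 119, 122 and 110 CPM in GOF. WT replicate 3 was nearly at the sum of the other WT libraries, yet all 3 lay above GOF. The log2 fold change was -0.80 (SE 0.21, edgeR adjusted p = 0.0179). It was -0.43 when WT replicate 3 was left out (SE 0.091, edgeR adjusted p = 0.0127). It did not pass with limma on log2(FPKM + 1) (adjusted p = 0.0509). Removing GOF replicates 1 and 3, or 2 and 4, also ended the call (edgeR adjusted p = 0.0937 and 0.0986). Eif4h holds a CACGTG match (chr5:134639488-134639517, minus strand, CACGTG in capitals).
Eif4h E-box: cggccgccgcacCACGTGggccgcagagcg

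For the helicases themselves, the values depended on where reads were counted. Eif4a1 (ENSMUSG00000059796), the main eIF4A gene of dividing cells, was at 188, 156 and 180 CPM in WT and at 159, 194, 162 and 183 CPM in GOF, with a log2 fold change of 0.00062 (SE 0.10, edgeR adjusted p = 0.997). The table also lists the processed pseudogene Eif4a-ps4 (chr1:60703932-60705149), which matches the Eif4a1 coding sequence at 99.9% of 1218 bases, and it carried 36423 counts over all libraries against 18474 on Eif4a1 itself. The pseudogene row was at 423, 377 and 400 CPM in WT and at 294, 313, 294 and 322 CPM in GOF. It was called lower, with a log2 fold change of -0.39 (SE 0.077, edgeR adjusted p = 0.0051).

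Reads from Eif4a1 and from its copy cannot be told apart in these counts. Their sum was 575 ± 39.5 CPM (SD, n = 3) in WT and 480 ± 29.9 CPM (SD, n = 4) in GOF, without overlap. With the counts of pseudogene copies added to their members, Eif4a1 had a log2 fold change of -0.26 (SE 0.084, edgeR adjusted p = 0.0447) and 17 members in place of 16 were lower. The share of the sum placed on the copy was 69.7% ± 0.978 (SD, n = 3) in WT and 63.7% ± 1.41 (SD, n = 4) in GOF. Pseudogene copies took 1.16% of the joint counts of Eif1, 0.49% of those of Eif3e and 0.105% of those of Eif5a, and a transcript of Emd matches Eif1 at 96.8% of 343 bases. Reads of a parent gene that were placed on its copy are missing from its row, so the Eif4a1 row alone is uncertain.

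**Figure D3:**
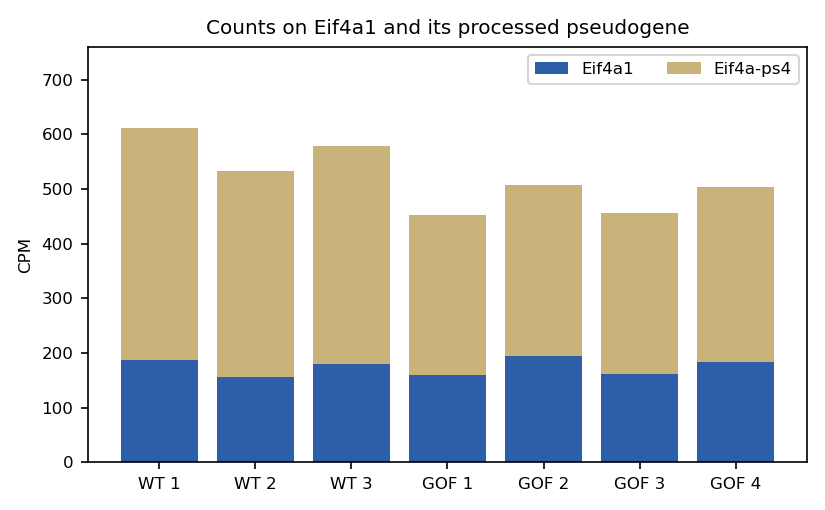
CPM on Eif4a1 (blue) and on its processed pseudogene Eif4a-ps4 (tan), stacked for each of the 7 libraries. The Eif4a1 part shows no difference between the groups, while the stacked sums of the WT libraries (533 to 611 CPM) all exceed those of the GOF libraries (453 to 507 CPM).

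Eif4a2 (ENSMUSG00000022884), the paralogous helicase, was at 596, 659 and 640 CPM in WT and at 530, 636, 526 and 609 CPM in GOF. The groups overlapped, and the log2 fold change of -0.14 (SE 0.094) did not pass (edgeR adjusted p = 0.308). Several small nucleolar RNA genes lie within the Eif4a2 locus. Eif4a3, a component of the exon junction complex more than of initiation, was at 137 ± 18.5 CPM (SD, n = 3) in WT and 120 ± 8.55 CPM (SD, n = 4) in GOF (edgeR adjusted p = 0.223).

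None of the 3 eIF4G scaffold genes passed the test. Eif4g1 was at 360, 463 and 470 CPM in WT and at 388, 447, 321 and 369 CPM in GOF, with a log2 fold change of -0.18 (SE 0.13, edgeR adjusted p = 0.342). Eif4g2, which encodes the cap-independent relative DAP5, was at 866 ± 30.7 CPM (SD, n = 3) in WT and 833 ± 94.8 CPM (SD, n = 4) in GOF. Eif4g3 was at 231 ± 21.8 CPM (SD, n = 3) and 239 ± 24.2 CPM (SD, n = 4). For all 3 genes the groups overlapped, and with unadjusted total counts the small negative difference of Eif4g2 was positive (0.020).

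eIF3 is the largest initiation factor, a ring of many subunits that holds the small ribosomal subunit. Of its 14 genes 5 fell (35.7%), none rose and 9 did not pass, and 12 of the 14 had a negative log2 fold change (85.7%). Of all tested genes 14.5% fell and 49.5% had a negative value. Eif3c and Eif3m also lay below every WT library in all GOF libraries, but were not called. Those that fell were Eif3d, Eif3e, Eif3f, Eif3h and Eif3l, and the median log2 fold change over the 14 genes was -0.23. The positive values were those of Eif3j1 and Eif3j2, whose product is loosely bound to the complex.

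Eif3e (ENSMUSG00000022336, chr15:43250040-43282736), also known as Int6, was at 587, 546 and 598 CPM in WT and at 413, 389, 434 and 414 CPM in GOF. The groups lay far apart for their spread, with a log2 fold change of -0.48 (SE 0.075, edgeR adjusted p = 0.0016). Eif3h (ENSMUSG00000022312, chr15:51786558-51865481), for another subunit of the ring, was at 611, 464 and 548 CPM in WT and at 397, 361, 442 and 408 CPM in GOF. It fell without overlap, with a log2 fold change of -0.43 (SE 0.11, edgeR adjusted p = 0.0174), and the call was lost without WT replicate 1 or 3 (edgeR adjusted p = 0.0544 and 0.0530).

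Eif3f (ENSMUSG00000031029, chr7:108934417-108942951), whose product is a docking site for mTORC1 and S6 kinase, was at 792, 661 and 686 CPM in WT and at 557, 472, 613 and 539 CPM in GOF. It fell by 0.39 on the log2 scale (SE 0.11, edgeR adjusted p = 0.0233), and the call was lost without WT replicate 1, GOF replicate 1 or GOF replicate 4 (edgeR adjusted p from 0.0551 to 0.0707) and with total counts (edgeR adjusted p = 0.0518). Eif3d (ENSMUSG00000016554, chr15:77958998-77970824), which can itself bind the cap of some mRNAs, was at 258, 240 and 247 CPM in WT and at 204, 184, 210 and 199 CPM in GOF. The groups did not overlap, the log2 fold change was -0.32 (SE 0.077, edgeR adjusted p = 0.0135), and the call was kept without any single library. Removing GOF replicates 1 and 3, or 2 and 4, ended it (edgeR adjusted p = 0.0502 and 0.0871). An antisense gene overlaps the exons of Eif3d, and without a stated strand setting their reads cannot be told apart.

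Eif3l (ENSMUSG00000033047, chr15:79075223-79094400) changed least of the 5 that fell. It was at 223, 189 and 220 CPM in WT and at 169, 170, 173 and 179 CPM in GOF, with a log2 fold change of -0.29 (SE 0.082, edgeR adjusted p = 0.0272). The groups did not overlap, but the call was lost when WT replicate 1 or 3 or GOF replicate 1, 2 or 3 was left out (edgeR adjusted p from 0.0539 to 0.0923) and with total counts (edgeR adjusted p = 0.0840). Eif3g and Eif3m were close to the threshold, at log2 fold changes of -0.34 and -0.27 (edgeR adjusted p = 0.0530 and 0.0502). Both passed when WT replicate 2 was left out (edgeR adjusted p = 0.0076 and 0.0251), as did Eif3c (edgeR adjusted p = 0.0434 against 0.0877 with all libraries). With all libraries, DESeq2 called Eif3g lower (adjusted p = 0.0448) and limma on quantile-normalized values called Eif3m lower (adjusted p = 0.0362).

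The remaining eIF3 genes showed small differences. Eif3a, the largest subunit, had a log2 fold change of -0.17, Eif3b -0.062, Eif3i -0.025 and Eif3k -0.18, all with overlapping groups. Under total counts the values of Eif3b and Eif3i were positive (0.015 and 0.053). Eif3j1 was at 70.7 ± 4.23 CPM (SD, n = 3) in WT and 78.5 ± 2.06 CPM (SD, n = 4) in GOF, above WT in all 4 GOF libraries but not past the test (edgeR adjusted p = 0.203). Eif3j1 and Eif3j2 are identical over 781 coding bases, so the split of reads between them is uncertain.

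**Figure D4:**
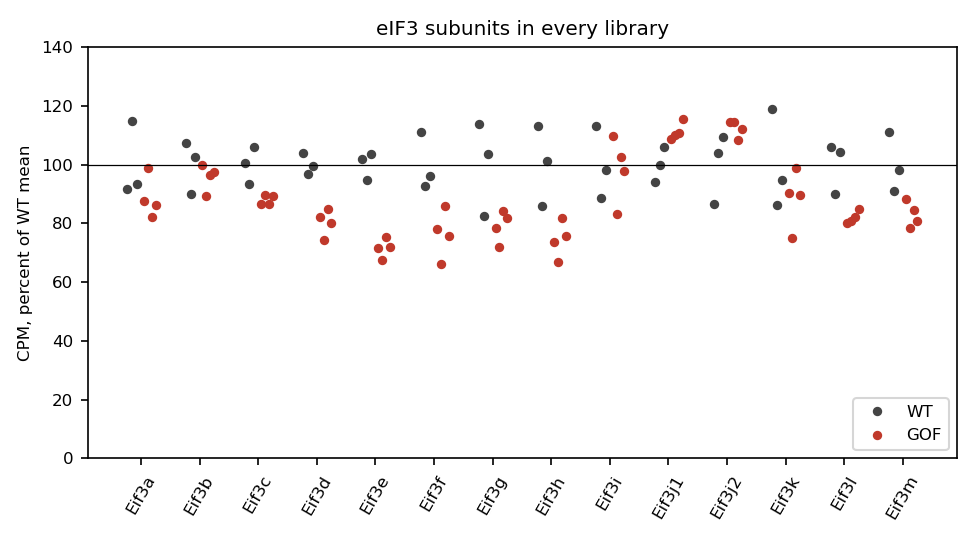
CPM of each of the 14 eIF3 genes in every library, as a percent of the WT mean of that gene, with WT in grey and GOF in red. All 4 GOF points of Eif3d, Eif3e, Eif3f, Eif3h and Eif3l lie below the WT points, while those of Eif3a, Eif3b, Eif3i and Eif3k mix with them.

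Several eIF3 mRNAs, that of eIF4B and those of the elongation factors are known 5′ TOP mRNAs, so the first bases of these transcripts were looked up. The 30-base windows centred on a RefSeq start (GRCm38.p6) are shown for the 3 genes that fell and have a run of at least 8 pyrimidines there, sense strand, with the longest pyrimidine run in capitals, for Eif3f (chr7:108934400-108934429, plus strand), Eif3l (chr15:79075208-79075237, plus) and Eif2s3x (chrX:94212637-94212666, minus).
Eif3f start: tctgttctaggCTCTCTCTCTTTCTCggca
Eif3l start: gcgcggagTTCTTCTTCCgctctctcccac
Eif2s3x start: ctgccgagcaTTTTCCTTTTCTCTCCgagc
A C at the annotated start followed by at least 4 pyrimidines was found for Eif2s3x, Eif3f and the noncoding Eif2c5, which is 3 of 39 members (7.69%) and compares with 3.01% of all genes in the table. A run of at least 8 pyrimidines within the window was found for 8 of 39 members (20.5%) and for 13.9% of all genes. Among the other translation genes described below these shares were 3.7% for the C at the start and 14.8% for the run. The run was also found for Eif2b2, which rose, for Eif2b5, Eif4e and Eif4enif1, which did not pass, and for Eif2c5. It was present in 25% of 12 members that fell and in 12.5% of 24 that did not pass. Eif4b had a longest run of 7 and no C followed by 4 pyrimidines at the start. The longest run was 10 for Eef1a1 and 2 for Eef2, also without such a start. Both searches used the sense strand and overlap each other. Annotated starts can be some bases away from the starts used in these cells, and no match says only that these letters are not in this window.

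eIF2 carries the initiator tRNA, and its subunit genes did not move together. Eif2s1 (ENSMUSG00000021116), which encodes the alpha subunit that stress kinases phosphorylate, was at 116, 106 and 107 CPM in WT and at 110, 126, 111 and 113 CPM in GOF. The groups overlapped and the log2 fold change was 0.074 (SE 0.085, edgeR adjusted p = 0.548). Eif2s2 (ENSMUSG00000074656, chr2:154871410-154892935), for the beta subunit that contacts eIF5 and eIF2B, was at 159, 122 and 159 CPM in WT and at 110, 113, 111 and 106 CPM in GOF. It fell by 0.41 on the log2 scale (SE 0.10, edgeR adjusted p = 0.0169), and the call was lost without WT replicate 1 or 3 (edgeR adjusted p = 0.0536 and 0.0672).

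Eif2s3x (ENSMUSG00000035150, chrX:94188707-94212862), for the GTP-binding gamma subunit, was at 63.1, 61.9 and 78.5 CPM in WT and at 49.3, 53.6, 54.6 and 53.3 CPM in GOF. It fell without overlap, with a log2 fold change of -0.36 (SE 0.11, edgeR adjusted p = 0.0314), and the call was lost without WT replicate 3 or any GOF replicate (edgeR adjusted p from 0.0528 to 0.116) and with total counts (edgeR adjusted p = 0.0795). Per exon length, the ratio of Eif2s2 to Eif2s1 was 1.00, 0.844 and 1.09 in WT and 0.733, 0.657, 0.733 and 0.686 in GOF. The ratio of Eif2s3x to Eif2s1 was 0.708, 0.760 and 0.954 in WT and 0.580, 0.552, 0.638 and 0.611 in GOF. Both ratios were lower in every GOF library than in any WT library, with no test made of them.

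eIF2B recycles eIF2 by exchanging GDP for GTP, and of its 5 subunit genes 1 rose and none fell. The share that rose was 20%, beside 16.8% of all tested genes. Eif2b2 (ENSMUSG00000004788, chr12:85219481-85226628), for the beta subunit of the regulatory part, was at 44.0, 37.4 and 41.4 CPM in WT and at 58.5, 52.9, 58.0 and 59.9 CPM in GOF. The groups did not overlap, and the log2 fold change of 0.49 (SE 0.098, edgeR adjusted p = 0.0058) was kept without any single library but not without GOF replicates 1 and 3 (edgeR adjusted p = 0.0710). The other eIF2B genes stayed within log2 fold changes of -0.16 (Eif2b3) and -0.0052 (Eif2b4), with overlapping groups, and total counts turned the values of Eif2b1, Eif2b4 and Eif2b5 positive (0.040, 0.072 and 0.0098).

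Of the 10 genes that act in scanning, start codon choice and subunit joining 1 rose and 2 fell. These shares of 10% and 20% stand beside 16.8% and 14.5% of all tested genes. Eif1b (ENSMUSG00000006941, chr9:120492606-120495327), a paralog of the start codon fidelity factor eIF1, was at 42.0, 28.3 and 33.8 CPM in WT and at 45.7, 53.6, 49.4 and 66.0 CPM in GOF. It rose without overlap, with a log2 fold change of 0.63 (SE 0.17, edgeR adjusted p = 0.0203), and the call was lost when WT replicate 2 or 3 or GOF replicate 4 was left out (edgeR adjusted p from 0.0516 to 0.0690). An antisense gene overlaps the exons of Eif1b. Eif1 itself was at 513 ± 124 CPM (SD, n = 3) in WT and at 454 to 538 CPM in the GOF libraries, with WT replicate 2 the lowest library at 370 CPM, and its log2 fold change of -0.075 was 0.0013 with total counts. Per exon length the ratio of Eif1b to Eif1 was 0.128 ± 0.0172 (SD, n = 3) in WT and 0.205 ± 0.0206 (SD, n = 4) in GOF, without overlap.

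Eif1ax (ENSMUSG00000067194, chrX:159372178-159389928), an eIF1A gene, was at 101, 84.2 and 94.7 CPM in WT and at 63.2, 71.7, 78.8 and 79.4 CPM in GOF. It fell by 0.35 on the log2 scale (SE 0.11, edgeR adjusted p = 0.0410), a call lost when WT replicate 1 or 3 or GOF replicate 1, 2 or 3 was left out (edgeR adjusted p from 0.0557 to 0.110) and with total counts (edgeR adjusted p = 0.0900). Its paralog Eif1a was at 35.3 ± 2.49 CPM (SD, n = 3) and 31.8 ± 3.32 CPM (SD, n = 4), with overlap. Eif1ad (ENSMUSG00000024841, chr19:5366813-5371511), which carries an eIF1A-like domain, was at 71.3, 68.2 and 75.8 CPM in WT and at 58.6, 58.4, 61.6 and 60.4 CPM in GOF. It fell by 0.26 on the log2 scale (SE 0.085, edgeR adjusted p = 0.0417), and the call was lost when WT replicate 1 or 3 or any GOF replicate was left out (edgeR adjusted p from 0.0634 to 0.133) and with total counts (edgeR adjusted p = 0.130). Banf1 overlaps the exons of Eif1ad on the opposite strand, and in all 11 members, 3 of them called, have an antisense gene over their exons.

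Eif6 (ENSMUSG00000027613), which encodes a factor that keeps the large ribosomal subunit from joining too early, was at 94.3, 74.1 and 96.9 CPM in WT and at 65.7, 58.2, 74.6 and 74.1 CPM in GOF. WT replicate 2 lay among the GOF libraries, and the log2 fold change of -0.38 (SE 0.13) did not pass (edgeR adjusted p = 0.0544). Without WT replicate 2 it was -0.49 (SE 0.12, edgeR adjusted p = 0.0180), and DESeq2 called Eif6 lower with all libraries (adjusted p = 0.0427). Eif2a and Eif2d, factors that can deliver initiator tRNA without eIF2, had log2 fold changes of -0.26 and 0.16, with no overlap between groups for either and edgeR adjusted p of 0.0937 and 0.239. Eif2a passed without GOF replicate 2 (edgeR adjusted p = 0.0464). Eif5, which triggers GTP hydrolysis on eIF2, and Eif5b, which joins the subunits, were at -0.097 and 0.065 with overlapping groups.

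Both eIF5A genes fell. eIF5A carries the modified lysine hypusine and helps the ribosome through difficult stretches of elongation as well as termination. Eif5a (ENSMUSG00000078812, chr11:69916714-69921958) was at 701, 542 and 570 CPM in WT and at 412, 360, 407 and 430 CPM in GOF. The groups did not overlap, and the log2 fold change was -0.59 (SE 0.11, edgeR adjusted p = 0.0035). A CACGTG match of Eif5a lies at chr11:69921443-69921472 on the minus strand (CACGTG in capitals).
Eif5a E-box: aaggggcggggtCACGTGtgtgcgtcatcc
Eif5a2 (ENSMUSG00000050192, chr3:28781276-28798846), the rarer paralog, was at 13.7, 16.0 and 14.9 CPM in WT and at 10.2, 9.83, 10.6 and 7.20 CPM in GOF. Its log2 fold change was -0.65 (SE 0.17, edgeR adjusted p = 0.0192), a call lost without WT replicate 2 or 3 (edgeR adjusted p = 0.0515 and 0.0504). Per exon length the ratio of Eif5a2 to Eif5a was 0.0119 in WT (SD 0.0024, n = 3) and 0.0112 in GOF (SD 0.0023, n = 4), and the groups overlapped.

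Compared per annotated exon length, Eif3h, Eif1, Eif3f, Eif5a and Eif4b had the highest means over all 7 libraries. Eif3h came first in both groups, followed by Eif5a, Eif3f and Eif1 in WT and by Eif1, Eif3f and Eif5a in GOF. On the deposited FPKM the order began with Eif3k, Eif3h, Eif3e and Eif4b, so Eif3h and Eif4b were near the top on both scales. The order below that depends on the length given to each gene. For Eif3e the implied length was 0.229 times the annotated exon length and for Eif3k 0.287 times. In the other direction, Eif4a2 had an implied length of 16.1 kb, 3.01 times its annotated exon length of 5.34 kb. Fold changes within a gene do not use the length.

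Other genes of the translation pathway were taken from 5 lists, 66 genes of which 62 were tested, and 8 rose and 16 fell. Of all tested genes 16.8% rose and 14.5% fell. Of the elongation genes 4 of 9 fell and none rose. The mean level of Eef2, for the translocating elongation factor, was 7367 CPM in WT (SD 435) and 4674 CPM in GOF (SD 249), with a fold change of -0.66 in log2 units (edgeR adjusted p = 0.00077). Eef1a1, which delivers aminoacyl-tRNA, fell by 0.51 (edgeR adjusted p = 0.0054), and Eef2k, the kinase that inhibits eEF2, fell by 1.49 (edgeR adjusted p = 0.0019) on the log2 scale. Eef1d fell by 0.41 (edgeR adjusted p = 0.0276), a call lost without WT replicate 1 or any GOF replicate (edgeR adjusted p from 0.0535 to 0.0713). Eef1a1 has many processed pseudogenes, so its count is uncertain.

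Of 16 tested initiation proteins without an Eif name, 2 rose and 5 fell, beside 16.8% and 14.5% of all tested genes. Larp1, which encodes the protein that binds 5′ TOP mRNAs, had a mean of 425 CPM in WT (SD 46.5) and 261 CPM in GOF (SD 13.2), with a fold change of -0.71 in log2 units (edgeR adjusted p = 0.00056). Mif4gd, a partner of histone mRNA translation, fell by 0.68, and of the eIF4E-binding Cyfip genes Cyfip2 fell by 0.37 and Cyfip1 rose by 1.15 on the log2 scale. Of 8 termination and recycling genes Mcts1 alone passed, with a rise of 0.59.

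Of 12 tested genes of mTORC1, the S6 kinases and the MNK kinases, 1 rose and 3 fell. Of all tested genes 16.8% rose and 14.5% fell, and lists this small say little beside those shares. Rps6kb2, which encodes S6 kinase 2, rose by 0.61, and Tsc1 and Tsc2, the brakes of mTORC1, fell by 0.49 and 0.38 on the log2 scale. Mtor fell by 0.40 with overlapping groups (edgeR adjusted p = 0.0491), a call lost when WT replicate 2 or 3 or GOF replicate 1, 3 or 4 was left out (edgeR adjusted p from 0.102 to 0.150). Of 17 tested genes of the eIF2 kinases and the integrated stress response, 4 rose and 4 fell, beside the same 16.8% and 14.5%. Trib3, an ATF4 target, fell from a mean of 57.1 CPM (SD 12.1) to 4.90 CPM (SD 1.39), while Ppp1r15a, for the GADD34 subunit that has eIF2 alpha dephosphorylated, rose by 1.36 and the mTORC1 inhibitor Ddit4 by 2.66 on the log2 scale. Eif2ak2, for the double-stranded RNA kinase PKR, rose by 1.19. Ppp1r15b, the paralog of Ppp1r15a, fell by 0.39 on the log2 scale (edgeR adjusted p = 0.0103). Impact fell by 0.72 and Gcn1l1 by 0.48, while Atf3 rose by 1.76 (edgeR adjusted p = 0.0020, 0.0255 and 0.0468). The calls of Ppp1r15b, Impact, Gcn1l1 and Atf3 were not followed in the alternatives. Without GOF replicates 1 and 3 the pathway lists held 5 rises and 8 falls, beside 8.53% and 8.34% of all tested genes. Of the genes followed in the alternatives, the calls of Eef1d, Mtor, Cyfip1, Cyfip2, Tsc1 and Tsc2 were then lost (edgeR adjusted p = 0.131, 0.220, 0.0595, 0.0726, 0.0628 and 0.123). Without GOF replicates 2 and 4 there were 7 rises and 8 falls, beside 13.6% and 10.5% of all tested genes. Of the genes followed in the alternatives, the calls of Eef1d, Mtor, Eef1a1, Cyfip2, Mif4gd and Tsc1 were then lost (edgeR adjusted p = 0.117, 0.110, 0.0519, 0.0568, 0.0840 and 0.0615).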

How the data were processed

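RNA was sequenced from 3 WT and 4 GOF libraries. The table that the authors deposited lists 34745 genes, and gives each library a column of raw counts and a column of FPKM. The submitters' processing notes name HISAT2 2.0.4, Cufflinks 2.1.1, Cuffdiff and mm10. How reads were counted, with what strand setting and how reads with several matches were handled was not given in the sources used here. Each deposited FPKM equals the count over a fixed length and the column total within 0.1% for 100% of values.

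Counts were tested with edgeR 4.0.16 (filterByExpr, TMM, quasi-likelihood, R 4.3.3) over all 12668 genes that passed the filter, with Benjamini-Hochberg adjustment and a threshold of 0.05. CPM uses TMM-scaled totals. Alternatives used other scaling, DESeq2 1.42.0, limma 3.58.1 on log2 FPKM with pseudocounts of 1 and 0.5, other filters, each library left out, and a replicate block. On simulated data with 12449 genes the GOF against WT fit recovered 67.3% of 98 genes with a log2 change of 1 and 9% of 100 with a change of 0.5. Far fewer genes changed there than the 31.3% called in the data, and the adjustment of p depends on that share. The recovery in the data is therefore not measured by these values. Near-identical copies were found with blastn 2.17.0 (at least 95% identity over 150 bases of GENCODE M21 transcripts). Of the members 39 matched RefSeq promoters.

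Values in every library are given for members past the threshold (up to 4 in each role group with the smallest p, plus Eif3l) and for Eif4e, the Eif4ebp genes, Eif4a1, Eif4a2, Eif4g1, Eif2s1, Eif5a and Eif6 whatever their result. In each pathway list up to 4 called genes with the smallest p are named, and in the stress response list the remaining called genes too. Eif3l was added after its values were seen. The members and lists were chosen with earlier results of these data known.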

Additional observations from a re-analysis of the deposited data

How the results depend on the processing

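The direction of all 18 called members was kept in every alternative run. Counts of lower members, 16 with all libraries, ranged from 9 to 18 with 1 library left out, and those of higher members from 1 to 2. They were 9 with limma at a pseudocount of 1, 10 at 0.5, 7 without GOF replicates 1 and 3 and 5 without GOF replicates 2 and 4, the last pair of settings and the added pseudogene copies being chosen after seeing the data. Higher members numbered 1 in both pair removals and with the replicate block. All tested genes gave 1093 higher and 1069 lower at a mean FPKM of at least 5, where fewer genes were tested, and 1074 and 1050 without GOF replicates 1 and 3. Other translation genes gave 10 lower with limma at either pseudocount, 5 higher and 8 lower without GOF replicates 1 and 3, and 8 lower without GOF replicates 2 and 4. Deviations of same-numbered WT and GOF libraries from their group means had correlations of 0.026, 0.15 and -0.041. Those of the other pairs lay between -0.18 and 0.13. So few values cannot decide whether the numbers pair the libraries. The replicate block gave 12 lower members among 1519 lower and 1677 higher genes, and called Eif6 and Eif3g lower (edgeR adjusted p = 0.0301 and 0.0458).

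Log2 fold changes of 12 uncalled members changed sign, all near 0 but for Eif4a1. With total counts they were 0.0013 for Eif1, 0.040 for Eif2b1, 0.072 for Eif2b4, 0.0098 for Eif2b5, 0.015 for Eif3b, 0.053 for Eif3i, 0.020 for Eif4g2 and 0.011 for Eif4enif1. With limma at pseudocounts of 1 and 0.5 they were 0.030 and 0.030 for Eif1, 0.046 and 0.049 for Eif2b1, 0.058 and 0.062 for Eif2b4, 0.0070 and 0.0071 for Eif2b5, 0.017 and 0.017 for Eif3b, 0.050 and 0.051 for Eif3i, 0.013 and 0.014 for Eif4g2, and 0.0080 and 0.0084 for Eif4enif1. Quantile normalization gave 0.027 for Eif1, 0.022 for Eif3b, 0.0083 for Eif3i and 0.020 for Eif4g2. Without a filter Eif2b4 was 0.0056, and at a mean FPKM of at least 5 Eif2b1 was 0.014, Eif2b4 0.043 and Eif3i 0.026. Without GOF replicates 1 and 3 Eif2b4 was 0.062 and Eif4g2 0.051, and without 2 and 4 Eif5b was -0.0081, Eif2b1 0.080, Eif3i 0.099 and Eif4a1 -0.11. Eif4a1 was -0.024 with the replicate block and -0.26 with its copy added. With 1 library left out values ranged from -0.27 to 0.037 for Eif1, -0.15 to 0.0087 for Eif5, -0.18 to 0.10 for Eif2b1, -0.061 to 0.054 for Eif2b4, -0.11 to 0.068 for Eif3i, -0.079 to 0.055 for Eif4a1 and -0.029 to 0.11 for Eif4g3. The cause was not tested. In simulated data of this design 9% of 100 changes of 0.5 on the log2 scale were recovered. Far fewer genes changed there than were called in the data, so this is not the recovery in the data.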
